A study of Mus musculus with 6 samples.

Results

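The genes described here are the receptors for epidermal growth factor (EGF) and fibroblast growth factor (FGF) and the feedback genes that these receptors switch on: Egfr, Fgfr1, Fgfr2, Spry1, Spry2, Spry4, Dusp6, Etv4, Etv5 and Egr1. They were chosen by gene symbol in the annotation of the array, and each of the 10 genes had 1 probe, so 10 of the 16384 named genes, and 10 of the 23466 probes in the table, are described. Neural stem cells taken from C57BL6 mouse brain at P0, the day of birth, were cultured without other treatment in DMEM/F12 with EGF, bFGF (basic FGF, or FGF2) and heparin. Cells labelled homozygous, heterozygous or wild type for Ecrg4, which encodes a secreted peptide precursor, were hybridised to 2 arrays per label, 6 arrays in all. All 3 groups therefore shared both mitogens. The sources used here do not say how the Ecrg4 allele was changed, or whether the arrays of a label came from separate animals or cultures. The p-values therefore measure spread between arrays only, and that spread may be technical.

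EGF binds Egfr, and bFGF binds Fgfr1 and Fgfr2 with heparin or heparan sulphate as a co-receptor. Both kinds of receptor are tyrosine kinases that signal through RAS to the kinase ERK, and neural stem cells are commonly expanded in culture on these mitogens. ERK signalling induces transcription factor genes such as Egr1, Etv4 and Etv5, and it also induces its own inhibitors, the Sprouty proteins and the ERK phosphatase Dusp6.

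Promoter windows from RefSeq (GRCm38.p6), running from 250 bases before to 50 bases after the annotated start, were found for 6 of the 10 genes: Egfr, Fgfr2, Spry1, Spry2, Dusp6 and Etv5, the last with a pair of starts, giving 7 windows. No entry was used for Fgfr1, Etv4, Spry4 or Egr1. The windows were searched on both strands for CCGGAA, a short form of the site that ETS factors such as Etv4 and Etv5 bind. Sites with GGAA after other bases were not counted. CCGGAA was found in the windows of Egfr and Spry2, 2 of 6 genes, against 14.9% of all 32851 windows of the table. A match describes the letters and not a bound site. Egfr is shown as the receptor for EGF, Spry2 as the feedback inhibitor that holds CCGGAA, and Fgfr2 as the FGF receptor with a window. Capitals mark CCGGAA, which lies 119 to 114 bases upstream of the start of Egfr (on the minus strand relative to the gene). In the other window it lies 33 to 38 bases past the first base of Spry2. The Fgfr2 window does not hold CCGGAA, though it holds GGAA after other bases.
Egfr (chr11:16751953-16752252, plus strand): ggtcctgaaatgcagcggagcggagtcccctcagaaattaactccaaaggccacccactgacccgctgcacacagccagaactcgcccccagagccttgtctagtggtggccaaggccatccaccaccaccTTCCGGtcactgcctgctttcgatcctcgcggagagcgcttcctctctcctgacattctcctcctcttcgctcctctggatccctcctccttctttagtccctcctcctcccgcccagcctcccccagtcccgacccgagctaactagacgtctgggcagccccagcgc
Spry2 (chr14:105896770-105897069, minus strand): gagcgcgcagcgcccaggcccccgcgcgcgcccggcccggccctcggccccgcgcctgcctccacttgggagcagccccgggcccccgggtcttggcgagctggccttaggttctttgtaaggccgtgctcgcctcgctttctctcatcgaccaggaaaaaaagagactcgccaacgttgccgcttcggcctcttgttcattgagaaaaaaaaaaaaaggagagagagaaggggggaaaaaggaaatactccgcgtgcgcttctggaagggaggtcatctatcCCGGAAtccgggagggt
Fgfr2 (chr7:130266759-130267058, minus strand): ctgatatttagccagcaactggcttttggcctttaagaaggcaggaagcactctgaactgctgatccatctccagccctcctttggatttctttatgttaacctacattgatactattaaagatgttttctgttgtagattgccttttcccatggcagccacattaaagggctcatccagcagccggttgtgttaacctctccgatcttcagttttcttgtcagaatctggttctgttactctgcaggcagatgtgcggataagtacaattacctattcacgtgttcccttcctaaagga
The longer ETS site CCGGAAGT, which contains CCGGAA and stands in 3.89% of all windows, was in none of the 7 windows. Neither were the AP-1 site TGACTCA (5.2% of all windows), the cyclic AMP response element TGACGTCA (1.79%), its overlapping core TGACG (20.8%) or the CArG box of the serum response element (1.63%).

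Ecrg4 was read first as a check of the labels. Its probe gave 1.4 and 1.3 in homozygous cells, 345.5 and 373.9 in heterozygous cells and 112.9 and 154.9 in wild-type cells. The homozygous label matched its probe, but the heterozygous arrays read above the wild-type ones (log2 fold change 1.44 ± 0.19, limma adjusted p = 0.0395), so directions that involve these labels refer to the arrays as labelled. That call passed in 7 of 15 alternatives. With 1 array left out it held only without wild-type array 2, and the log2 fold change ran from 1.21 to 1.67. As a background level, the 95th percentile of 663 olfactory receptor probes was used, which lay between 50.5 and 57.6 per array; a probe under it on all 6 arrays is called dim. Of 12 measured neural stem cell markers, 10 exceeded that level on all 6 arrays, among them the intermediate filament genes Nes and Vim and the radial glial gene Fabp7, while Prom1 and Gfap were dim. None of 6 measured microglial and none of 4 measured endothelial markers exceeded that level on all 6 arrays, but the endothelial marker Flt1 exceeded it on 5. Flt1 read 104.1 and 54.4 in homozygous cells, 57.6 and 50.8 in heterozygous cells and 113.7 and 170.9 in wild-type cells. The number of arrays limits the precision of every value below.

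No member passed the threshold of 0.05 for the adjusted p in any comparison. Between homozygous and wild type the count was 0 of 10, against a background of 0.92% of the 20434 tested probes. It was 0 of 10 between heterozygous and wild type (background 0.749%) and 0 of 10 between homozygous and heterozygous (background 2.69%). The 3 comparisons share arrays with each other. Over the 3 genotypes together the moderated F test of limma called 0 of 10, with 2.26% of all probes called. At an unadjusted p under 0.05 the first comparison held 2 members, Fgfr1 and Fgfr2 (19% of all probes), the second 1, Fgfr2 (13.5%), the third 1, Spry1 (18.2%), and the F test 1, Fgfr2 (20.3%).

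No fitted difference of a member reached 2-fold in the 30 comparisons made. Of all tested probes 3.28% reached that size between homozygous and wild type, 2.75% between heterozygous and wild type and 4.23% between homozygous and heterozygous. Of the probes over the background level on all arrays, 1.61%, 0.922% and 2.52% did so in the same 3 comparisons. The median absolute log2 fold change of the members was 0.23 between homozygous and wild type, against 0.25 for all tested probes and 0.215 for those over the background level on all arrays. Between heterozygous and wild type it was 0.33 for the members, against 0.22 and 0.18, and between homozygous and heterozygous 0.15, against 0.23 and 0.19. With the signs kept, the median log2 fold change of the 10 members was 0.12 between homozygous and wild type, -0.06 between heterozygous and wild type and 0.08 between homozygous and heterozygous. Over all tested probes the medians were 0.02, -0.01 and 0.04. With Egr1 and the dim probes of Fgfr2 and Spry4 set aside, the 95% intervals of the fold for the other 7 genes ran at most from 0.424, the lower end for Fgfr1 between homozygous and wild type, to 1.99, the upper end for Spry1 between homozygous and heterozygous. A p that misses the threshold does not show that the genotypes were alike, and these intervals give the differences that the 6 arrays leave possible.

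**Figure D1:**
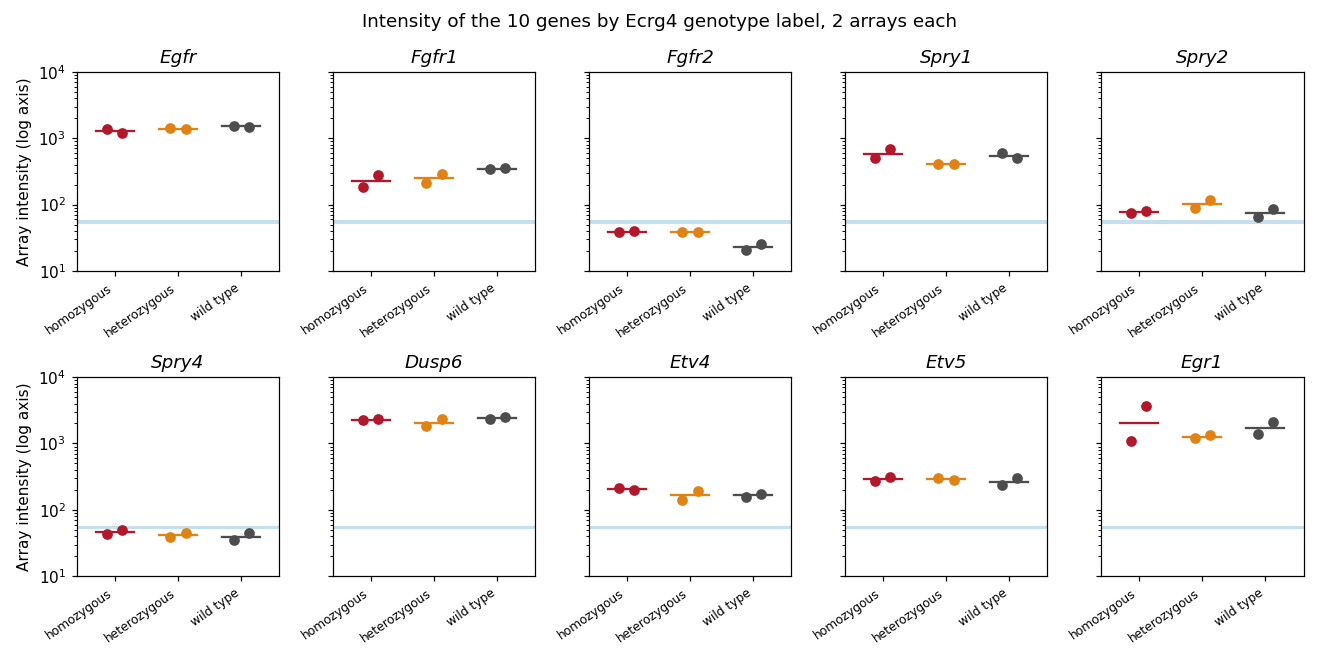
Intensity of each of the 10 genes on a log axis, with 1 point per array and a bar at the geometric mean of the 2 arrays of each genotype label; the blue band spans the background level of 50.5 to 57.6. Fgfr2 and Spry4 lie under the band on all 6 arrays, and Egr1 is the gene whose homozygous arrays lie furthest apart, at 1104.5 and 3687.7.

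Egfr, the receptor for EGF, read 1362.8 and 1204.5 in homozygous cells, 1420.4 and 1376.0 in heterozygous cells and 1548.9 and 1473.4 in wild-type cells. The 6 values were ordered without overlap, homozygous under heterozygous under wild type, which was so for 3.56% of all tested probes and for no other member. The steps were small: the homozygous level was 0.848-fold that of wild type (95% interval 0.661 to 1.09, log2 fold change -0.24 ± 0.15, limma adjusted p = 0.425). The heterozygous level was 0.925-fold that of wild type (interval 0.722 to 1.19, adjusted p = 0.744). Homozygous and heterozygous arrays differed by a fold of 0.916 (interval 0.715 to 1.18, adjusted p = 0.707). The replicate arrays of Egfr lay at most 1.13-fold apart. That was the homozygous pair, which differed more than 68.9% of the probes over the background level on all 6 arrays.

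Fgfr1, the main receptor for bFGF in neural progenitors, read 181.8 and 276.4 in homozygous cells, 213.2 and 291.1 in heterozygous cells and 340.1 and 351.5 in wild-type cells. Both mutant labels lay under both wild-type arrays, and the homozygous and heterozygous values overlapped. The fitted log2 fold change was -0.63 ± 0.25 between homozygous and wild type (interval of the fold 0.424 to 0.992, limma adjusted p = 0.256). Between heterozygous and wild type it was -0.47 ± 0.25 (0.471 to 1.10, adjusted p = 0.446). The spread within a label was wide: the homozygous arrays were 1.52-fold apart, more than 98.9% of the 8347 probes that exceeded the background level on all 6 arrays, and the heterozygous arrays 1.37-fold. Without homozygous array 1 the log2 fold change against wild type was -0.32, and without homozygous array 2 it was -0.93, neither past the threshold.

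Fgfr2, a further FGF receptor, read 38.1 and 40.4 in homozygous cells, 38.9 and 38.5 in heterozygous cells and 20.8 and 25.1 in wild-type cells. All 4 mutant values exceeded both wild-type values, but all 6 lay under the background level, so no bound of the fold can be given. The fit gave a log2 difference of 0.78 ± 0.16 between homozygous and wild type (limma adjusted p = 0.0865), 0.76 ± 0.16 between heterozygous and wild type (adjusted p = 0.137) and 0.02 ± 0.16 between homozygous and heterozygous (adjusted p = 0.961). With 16 added to each intensity the first of these was 0.51 (adjusted p = 0.0320), and with an intensity trend and a robust prior it was 0.78 (adjusted p = 0.0318), both past the threshold. Over the other 12 alternatives in which the probe was tested, its adjusted p stayed over 0.05.

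Some markers of other cell types differed between the same labels. The summed intensity of 11 neuron markers was 5262.0 and 5201.4 in homozygous cells, 4049.0 and 5378.4 in heterozygous cells and 2032.6 and 2015.7 in wild-type cells. Most of that sum was the growth cone gene Gap43, and 9 of the 11 markers were dim. Without Gap43 the sums were 452.8 and 405.3 in homozygous cells, 266.6 and 239.6 in heterozygous cells and 274.6 and 236.8 in wild-type cells, so the heterozygous excess over wild type was that of 1 gene. Between homozygous and wild type 2 of 11 rose (0.431% of all probes rose), Gap43 and the RNA-binding protein gene Elavl4. Gap43 rose between heterozygous and wild type (0.411%), with a list median of -0.02, and between homozygous and heterozygous Elavl4 rose (1.26%).

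For 10 fibroblast and mural cell markers, 7 of them dim, the sums were 267.8 and 279.1 in homozygous cells, 560.6 and 580.5 in heterozygous cells and 1464.1 and 1191.0 in wild-type cells. The smooth muscle actin gene Acta2 alone read 88.0 and 118.5 in homozygous cells, 277.5 and 284.6 in heterozygous cells and 1229.5 and 894.8 in wild-type cells. Without it the sums were 179.8 and 160.6 in homozygous cells, 283.1 and 295.9 in heterozygous cells and 234.6 and 296.2 in wild-type cells. Acta2 was the 1 marker of 10 that passed in each comparison, and it fell between homozygous and wild type (0.489% of all probes fell), between heterozygous and wild type (0.338%) and between homozygous and heterozygous (1.43%). Among the astrocyte markers, Aldoc read 6290.7 and 5543.8 in homozygous cells, 5614.0 and 5599.4 in heterozygous cells and 8372.1 and 8891.1 in wild-type cells. It passed in no comparison and made up most of each sum of this list, and the higher wild-type sums were those of this 1 gene. The 9 astrocyte markers summed to 10185.2 and 9211.7 in homozygous cells, 9437.3 and 9544.2 in heterozygous cells and 10383.6 and 11623.9 in wild-type cells. Of these, Sparcl1, a matricellular protein gene, read 1324.9 and 1300.9 in homozygous cells, 128.4 and 198.3 in heterozygous cells and 55.9 and 85.0 in wild-type cells, and rose between homozygous and wild type (log2 fold change 4.25, limma adjusted p = 0.00583) and between homozygous and heterozygous (3.04, adjusted p = 0.00869). The water channel gene Aqp4 fell between homozygous and heterozygous (-2.37, adjusted p = 0.0333), and the astrocyte list's median was 0.81 between heterozygous and wild type, where 0 of 9 passed. The 7 oligodendrocyte lineage markers summed to 11468.6 and 9527.2 in homozygous, 8709.7 and 9610.4 in heterozygous and 7507.0 and 7868.7 in wild-type cells. Of these 7 markers, 3 were dim and 0 passed in any comparison. Most of each sum was Olig1, which read 10348.0 and 8505.6 in homozygous, 7554.1 and 8680.5 in heterozygous and 6805.9 and 6933.1 in wild-type cells. Notch1 was the 1 of 12 neural stem cell markers that passed, and it fell between homozygous and heterozygous (1.43% of all probes fell). It read 224.6 and 217.2 in the homozygous and 374.4 and 399.0 in the heterozygous arrays (log2 fold change -0.81, limma adjusted p = 0.0450). Of 6 microglial markers P2ry12 rose between homozygous and wild type (limma adjusted p = 0.0221, 0.431% of all probes rose). P2ry12 also rose between homozygous and heterozygous (adjusted p = 0.0218, 1.26%). Cx3cr1 fell between heterozygous and wild type (adjusted p = 0.0374, 0.338% fell). Both microglial probes were dim, and 0 of 4 endothelial markers passed. The marker genes named here were chosen after their values were seen. The part of other cell types in the values of Fgfr1 and Fgfr2 was not tested. In such bulk RNA, fewer cells of a type and less RNA per cell cannot be told apart.

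The Sprouty proteins inhibit signalling from the receptors to ERK and are induced by it. Spry1 read 502.3 and 677.8 in homozygous cells, 404.4 and 411.3 in heterozygous cells and 594.9 and 500.2 in wild-type cells. The heterozygous arrays were the lowest, without overlap with either other label, and the homozygous and wild-type values overlapped. The homozygous level was 1.43-fold the heterozygous one (interval 1.03 to 1.99, limma adjusted p = 0.242), and the heterozygous level was 0.748-fold that of wild type (0.537 to 1.04, adjusted p = 0.399).

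Spry2 had the opposite arrangement. It read 73.6 and 80.5 in homozygous cells, 88.2 and 115.4 in heterozygous cells and 64.6 and 84.4 in wild-type cells. Here the heterozygous arrays were the highest, again without overlap, at 1.37-fold the wild-type level (interval 0.961 to 1.94, adjusted p = 0.397), and the homozygous level was 0.763-fold the heterozygous one (0.536 to 1.09, adjusted p = 0.388). All 6 values exceeded the background level, by 1.22-fold to 2.29-fold. Spry4 was dim, with 43.3 and 49.1 in homozygous cells, 38.8 and 44.8 in heterozygous cells and 34.7 and 44.0 in wild-type cells, and its labels overlapped in every pair. The log2 difference of Spry4 between homozygous and wild type was 0.24 ± 0.19 (adjusted p = 0.517).

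Dusp6, the phosphatase that removes the activating phosphates from ERK in the cytoplasm, is widely used as a readout of FGF signalling. It read 2243.6 and 2301.0 in homozygous cells, 1844.5 and 2310.5 in heterozygous cells and 2325.0 and 2545.4 in wild-type cells. Both mutant labels lay under the wild-type arrays, the highest of them by a narrow margin, and the homozygous values lay within the range of the heterozygous ones. The homozygous level was 0.934-fold that of wild type (interval 0.703 to 1.24, limma adjusted p = 0.784), the heterozygous level was 0.849-fold (0.638 to 1.13, adjusted p = 0.539), and homozygous over heterozygous was 1.10-fold (0.828 to 1.46, adjusted p = 0.719). All 6 arrays of Dusp6 lay within 1.38-fold of each other.

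Etv4 and Etv5 are ETS transcription factors of the PEA3 group, induced by FGF signalling. Etv4 read 212.9 and 202.2 in homozygous cells, 140.9 and 194.4 in heterozygous cells and 158.6 and 172.1 in wild-type cells. The homozygous arrays were the highest without overlap, at 1.26-fold the wild-type level (interval 0.907 to 1.74, adjusted p = 0.400) and 1.25-fold the heterozygous level (0.905 to 1.74, adjusted p = 0.436). Etv5 read 269.9 and 316.8 in homozygous cells, 302.4 and 278.4 in heterozygous cells and 232.7 and 300.8 in wild-type cells. Its labels overlapped in every pair, and its log2 fold changes were 0.14 ± 0.19, 0.13 ± 0.19 and 0.01 ± 0.19 in the 3 comparisons (lowest limma adjusted p = 0.709). No member had a smaller range between genotype means than Etv5, at 0.14 on the log2 scale.

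The arrays of both labels lay apart without overlap for 5 of 10 members between homozygous and wild type (50.5% of all tested probes). Of these, 2 were higher in homozygous cells (25.7% of all probes), Fgfr2 and Etv4, and 3 were lower (24.8%), Egfr, Fgfr1 and Dusp6. Between heterozygous and wild type 7 of 10 lay apart (45.5%), 2 of them higher (21%), Fgfr2 and Spry2, and 5 lower (24.5%), Egfr, Fgfr1, Spry1, Dusp6 and Egr1. Between homozygous and heterozygous 4 of 10 lay apart (54.6%), 2 higher (28.7%), Spry1 and Etv4, and 2 lower (25.9%), Egfr and Spry2. All 3 pairs of labels lay apart for Egfr, 1 of 10, against 16.8% of all probes. With 2 arrays a label such separation was common.

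**Figure D2:**
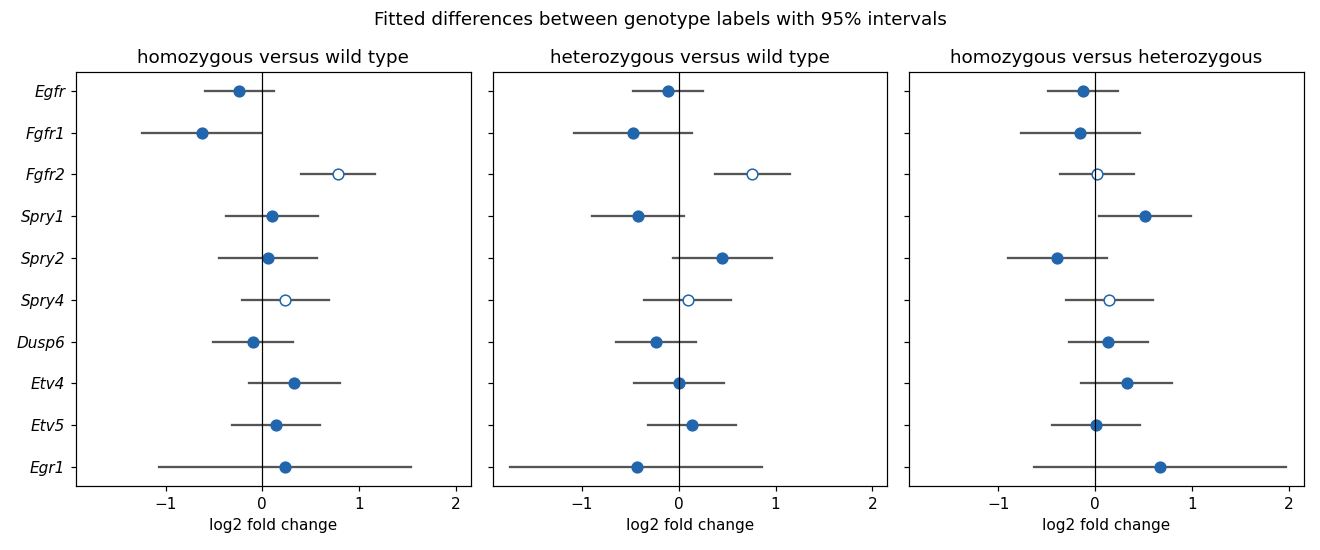
Log2 fold change of each gene (points) with its 95% interval from the limma fit (lines) in the 3 comparisons; open points mark the dim probes of Fgfr2 and Spry4. The intervals of Fgfr1 and Fgfr2 between homozygous and wild type, Fgfr2 between heterozygous and wild type and Spry1 between homozygous and heterozygous leave out 0, none passed after adjustment over all probes, and the interval of Egr1 is the widest.

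Egr1, a zinc finger transcription factor gene induced within minutes of ERK activation, differed more between arrays of 1 label than any other member. It read 1104.5 and 3687.7 in homozygous cells, 1211.5 and 1335.1 in heterozygous cells and 1407.9 and 2103.8 in wild-type cells. The homozygous values were the lowest and the highest of the 6. Their 3.34-fold difference exceeded that of 99.9% of the 8347 probes over the background level on all arrays, whose median difference was 1.08-fold. The log2 fold change of Egr1 was 0.23 ± 0.54 between homozygous and wild type (interval of the fold 0.476 to 2.89, limma adjusted p = 0.848). It was -0.44 ± 0.54 between heterozygous and wild type (0.3 to 1.82, adjusted p = 0.722) and 0.67 ± 0.54 between homozygous and heterozygous (0.644 to 3.91, adjusted p = 0.567). The direction against wild type rested on single arrays: it was -0.64 without homozygous array 2, 1.10 without homozygous array 1 and -0.06 without wild-type array 1.

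Other genes that ERK induces quickly differed between the same arrays. The list of ERK-induced transcription factor genes used here is broad. It also holds Elk1, Elk3, Elk4 and Ier3, not all of which are ERK-induced or encode transcription factors. Of 24 tested ERK-induced transcription factor genes other than the members, 8 were over 1.5-fold higher in homozygous array 2 than in homozygous array 1 and 0 were over 1.5-fold lower. Of 11 further ERK-induced genes, 5 were higher by that measure and 0 lower, against 4.45% of all tested probes and 0.887% of those over the background level on all arrays. Of the 24 genes 16 exceeded that level on all 6 arrays and 8 were dim, and of the 11 genes 2 exceeded it and 5 were dim. Shares among probes over background are therefore no like measure for these lists, least of all for the 11 genes. In the heterozygous pair 2 of 24 and 2 of 11 were higher in array 2 (2.39% of all probes, 0.563% of those over background), and 0 of 24 and 1 of 11 were over 1.5-fold lower. In the wild-type pair 6 of 24 and 6 of 11 were higher (13.5% of all probes, 7.28% of those over background), and 1 of 24 and 1 of 11 lower. Egr2, a close relative of Egr1, read 86.2 and 343.1 in homozygous cells, 98.7 and 103.9 in heterozygous cells and 103.2 and 163.9 in wild-type cells. Ier2, an immediate early gene, read 464.6 and 1672.7 in homozygous cells, 441.0 and 736.6 in heterozygous cells and 387.2 and 786.6 in wild-type cells. In every label the second array of Ier2 was the higher one.

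Nr4a1, an orphan nuclear receptor gene and immediate early gene, read 125.3 and 1891.8 in homozygous cells, 125.5 and 440.5 in heterozygous cells and 154.4 and 434.3 in wild-type cells. Fos, the AP-1 subunit gene, named here after its values were seen, read 240.6 and 3209.8 in homozygous cells, 281.4 and 1242.6 in heterozygous cells and 271.9 and 903.4 in wild-type cells. The array numbered 2 was thus over 1.5-fold above the array numbered 1 in all 3 labels for Fos, Ier2 and Nr4a1, and also for Cyr61, a matrix protein gene likewise chosen after its values were seen. Of all tested probes 0.113% did this, and of those over the background level on all arrays 0.0599%. Among the members, 0 of 10 did so. By any amount, array 2 was the higher one in all 3 labels for 5 of 10 members (13.1% of all probes, 15.5% of those over background): Fgfr1, Spry2, Spry4, Dusp6 and Egr1. Ier3, which with Ier2 had the highest mean log2 intensity of the transcription factor list, read 838.3 and 1004.9 in homozygous cells, 841.4 and 842.9 in heterozygous cells and 887.9 and 1216.3 in wild-type cells, a spread of at most 1.37-fold within a label.

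Other members did not share the size of this difference. Between the homozygous arrays Dusp6 differed 1.03-fold, Etv4 1.05-fold, Etv5 1.17-fold and Spry1 1.35-fold, and Fgfr1 at 1.52-fold was with Egr1 the other of 2 members over 1.5-fold (1.23% of probes over background, 6.89% of all tested). In the heterozygous pair 0 of 10 members differed by over 1.5-fold (1.64% and 10.3%), and in the wild-type pair 0 of 10 (7.94% and 16.7%). Dusp1, an ERK and stress kinase phosphatase gene chosen after its values were seen, read 208.8 and 610.5 in homozygous cells, 178.0 and 274.6 in heterozygous cells and 173.2 and 251.1 in wild-type cells.

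**Figure D3:**
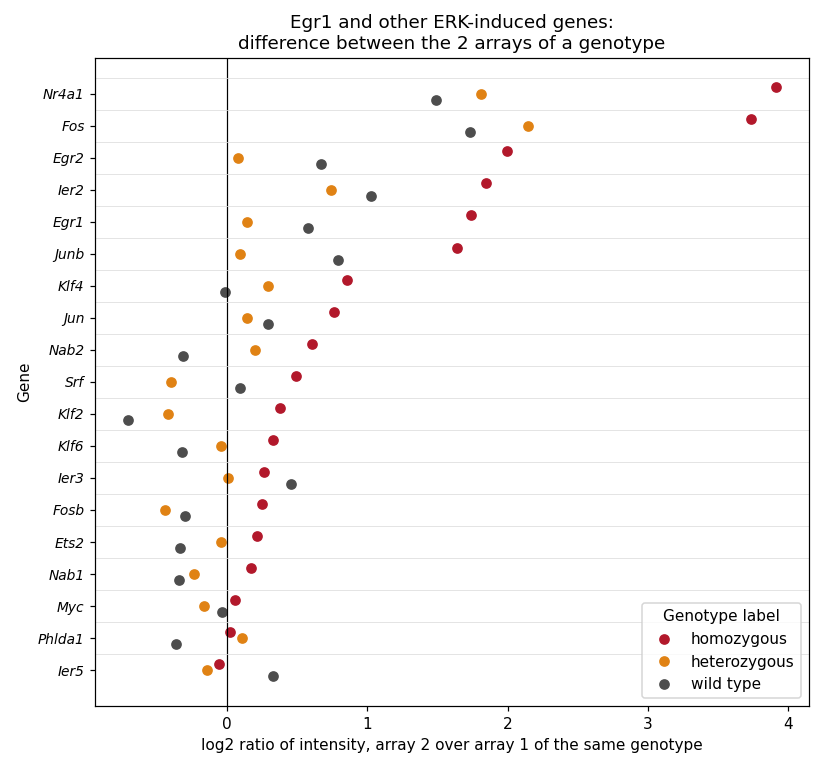
Log2 ratio of array 2 over array 1 within each genotype label for Egr1 and the ERK-induced genes over the background level on all 6 arrays, ordered by the ratio in the homozygous pair. Nr4a1 and Fos, at 15.1-fold and 13.3-fold in the homozygous pair, lie furthest right in all 3 labels, while Ier5, Phlda1 and Myc lie near 0 in the homozygous pair.

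The genes nearest in pattern were sought for Egr1, Fgfr1 and Spry1, the members over the background level with the widest range between genotype means. Likeness was the root mean square difference of mean-centred log2 values over the 6 arrays, among 6474 named probes over the background level on all arrays. Egr2 was nearest to Egr1, with a difference of 0.11 where Egr1 itself deviated by 0.60 from its mean, and Nfkbiz followed at 0.28. Osbpl9 (0.11) and Spidr (0.14) were nearest to Fgfr1, whose own deviation was 0.34. Osbpl9 read 192.3 and 253.7 in homozygous cells, 198.0 and 291.3 in heterozygous cells and 355.7 and 400.4 in wild-type cells. For Spry1 the nearest were Smg5 (0.05) and Crispld2 (0.07), against a deviation of 0.27. With 6 arrays, these are descriptions of these arrays.

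Among the remaining receptors of both families, 0 of 5 tested genes changed in any comparison, and 4 of the 5 were dim. Fgfrl1, an FGF receptor relative without a kinase domain, was the one above background, with 133.9 and 133.2 in homozygous cells, 147.3 and 176.4 in heterozygous cells and 145.3 and 143.3 in wild-type cells. Erbb4, a neuregulin receptor, was dim, with fitted log2 differences of 0.13 ± 0.26, -0.25 ± 0.26 and 0.38 ± 0.26 in the 3 comparisons. Of 8 tested EGF family ligands 0 changed and 7 were dim. Hbegf, a heparin-binding ligand of Egfr, exceeded the background on all 6 arrays, with 333.9 and 372.0 in homozygous cells, 382.8 and 328.3 in heterozygous cells and 419.9 and 424.2 in wild-type cells. Both mutant labels of Hbegf lay under wild type (log2 fold change -0.26 ± 0.16 between homozygous and wild type, adjusted p = 0.409, and -0.25 ± 0.16 between heterozygous and wild type, adjusted p = 0.496). Epgn, another ligand of Egfr, was dim, between 8.1 and 11.9.

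Of 18 tested FGF genes, 15 were dim, 0 changed between homozygous and wild type, 1 fell between heterozygous and wild type (0.338% of all probes) and 1 between homozygous and heterozygous (1.43%). Fgf12, whose protein stays inside the cell and is not known as a ligand of these receptors, read 9.9 and 10.6 in the heterozygous arrays and 34.4 and 24.5 in the wild-type arrays (log2 difference -1.50 ± 0.20, limma adjusted p = 0.0371). Its probe was dim, so no bound of the fold can be given, and the call held in 4 of 14 alternatives; with 1 array left out it held without wild-type array 2 (adjusted p = 0.0416) and ended without each of the others (0.098 to 0.186). Fgf1, a ligand of all FGF receptors, read 23.1 and 21.8 in the homozygous arrays and 49.5 and 68.1 in the heterozygous arrays (log2 difference -1.37 ± 0.24, adjusted p = 0.0453). In the homozygous arrays both Fgf1 values were under the background, and 1 of the 2 heterozygous values exceeded it. That call held in 8 of 14 alternatives, and it ended without either heterozygous array (adjusted p = 0.0938 and 0.203) or either homozygous array (0.223 and 0.270).

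In the cascade between the receptors and ERK, 0 of 21 tested genes changed in any comparison, with medians of -0.05 between homozygous and wild type, 0.13 between heterozygous and wild type and -0.06 between homozygous and heterozygous. Map2k1, which encodes the ERK kinase MEK1, read 1460.9 and 1385.7 in homozygous cells, 1171.0 and 1449.8 in heterozygous cells and 949.0 and 1312.0 in wild-type cells. Map2k2, for MEK2, read 1344.2 and 1282.8 in homozygous cells, 1281.8 and 1229.6 in heterozygous cells and 1752.4 and 1287.0 in wild-type cells. Neither passed (lowest adjusted p = 0.407).

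Among 20 other feedback inhibitors 1 rose, between homozygous and heterozygous (1.26% of all probes), and 0 changed in the other comparisons. It was Sulf1, a sulphatase that edits heparan sulphate and lowers FGF signalling, with 24.3 and 18.2 in the homozygous arrays and 3.6 and 2.5 in the heterozygous arrays (log2 difference 2.81 ± 0.34, limma adjusted p = 0.0165). The Sulf1 probe was dim, and with 16 added to each intensity the difference was 0.96. The call held in 10 of 14 alternatives and ended without either array of either label, with adjusted p between 0.0631 and 0.135. Of the 20 genes 10 exceeded the background level on all 6 arrays and 9 were dim, so the list's medians rest in part on dim probes. The list's median was 0.34 between homozygous and wild type, with 15 of 20 genes above 0, and 0.34 between homozygous and heterozygous, with 17 of 20 above 0. Over all probes 52.2% and 54.5% were above 0 in those comparisons. Between heterozygous and wild type the list's median was -0.04, with 8 of 20 genes above 0 (48.6% of all probes).

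None of the 24 other ERK-induced transcription factor genes and none of the 11 further ERK-induced genes passed in any comparison. The first list had medians of 0.07 between homozygous and wild type, -0.22 between heterozygous and wild type and 0.24 between homozygous and heterozygous, and the second 0.45, 0.03 and 0.34. Phlda1, an ERK-induced gene of the second list, read 436.1 and 442.0 in homozygous cells, 326.5 and 350.6 in heterozygous cells and 374.9 and 291.4 in wild-type cells. These medians include the genes whose values differed between the 2 homozygous arrays.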

How the data were processed

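Total RNA was amplified to amino allyl aRNA, coupled to a dye and hybridised to 1-colour arrays, per the labels' protocols, which also name biotin as the label. The authors deposited intensity values on a linear scale. All 6 columns have a median of 30, a sign of scaling before deposit; the sources used here name no background correction and no rule for blank cells.

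Values were log2-transformed without a pseudocount, and tests covered the 20434 probes measured on every array, leaving out 3032. One fit of the 3 genotype means to all 6 arrays was made in limma 3.58.1 (R 4.3.3), with 3 residual and 3.27 prior degrees of freedom. Tests were two-sided with Benjamini-Hochberg adjustment over all tested probes, and errors after log2 values are standard errors. Where alternatives leave 1 array to a label, that array is assumed to vary like the others. The model was tested on simulated data, with added changes larger than any fitted difference of a member. That test does not show how often differences of the members' size would be called.

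Symbols came from the platform annotation (16625 probes named), brought up to date through RefSeq. In a list, a gene with several probes took the one of highest mean. The members and lists were chosen with earlier results of these data known. Named genes were all members and Ecrg4, and up to 6 passing genes per pathway list or else its 2 of highest mean. The 2 nearest in pattern to 3 members were also named. Names outside this rule, such as the cell type markers, Ier5 and Myc, are not all marked. Alternatives were 3 scalings, a pseudocount of 16, another variance model, filled blanks, a filter on dim probes, the replicate number as a block, only the arrays compared, and each array left out.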

Additional observations from a re-analysis of the deposited data

How the results depend on the processing

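The count of members past the threshold stayed at 0 of 10 in the 3 comparisons and the F test under the alternatives, with these exceptions: without dim probes it was 0 of 8, Fgfr2 and Spry4 not being tested, and it was 1, Fgfr2, between homozygous and wild type and 1 in the F test, both with a pseudocount of 16 and with an intensity trend and robust prior. Of 444 values of members under alternatives, 442 stayed short of the threshold, and 18 of 30 comparisons of a member kept their sign throughout. Alternatives that altered only the variance model, the probes tested, the block or the arrays outside a comparison left the fitted fold change as it was. Those could not change a sign. Sign changes under other scalings lay near 0. Etv4 between heterozygous and wild type was -0.036 with quantile normalization, -0.01 with median centring and -0.037 with cyclic loess. Fgfr2 between homozygous and heterozygous was -0.015, -0.023 and -0.058 under the same 3 scalings, and Etv5 was -0.031 with median centring. Leaving out 1 array at a time, the log2 fold change between homozygous and wild type ran from -0.12 to 0.31 for Spry1, -0.13 to 0.25 for Spry2, -0.041 to 0.33 for Etv5 and -0.64 to 1.10 for Egr1. Between heterozygous and wild type it ran from -0.078 to 0.265 for Spry4, -0.23 to 0.24 for Etv4 and -0.052 to 0.318 for Etv5. Between homozygous and heterozygous it ran from -0.46 to 0.15 for Fgfr1, -0.023 to 0.062 for Fgfr2, -0.024 to 0.30 for Dusp6, -0.10 to 0.13 for Etv5 and -0.20 to 1.54 for Egr1. The cause of these changes was not tested, other than that each leaves fewer arrays.

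Counts over all probes moved more. Between homozygous and wild type the 188 calls became 328, 314 and 313 with quantile, median and cyclic loess scaling, 1143 with a pseudocount of 16, 1094 with an intensity trend, 849 without dim probes, 88 with filled blanks, 59 with only the arrays compared, and 1 to 224 with 1 array left out. Between heterozygous and wild type the 153 calls became 306 with the pseudocount, 400 with the trend, 40 with only the arrays compared and 18 to 340 with 1 array left out. Between homozygous and heterozygous the 549 became 1376, 1357, 974 without dim probes, 320 with filled blanks and 6 to 680 with 1 array left out. The 462 calls of the F test became 1493, 1582, 1023, 266, 721 with median centring and 24 to 843 with 1 array left out.

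With the replicate number of the titles as a block, 0 of 10 members passed in each comparison, and the counts over all probes were 47, 51 and 244, with 166 in the F test. The numbers were not taken as a pairing: over all probes, the deviations of same-numbered arrays had correlations of 0.01 between homozygous and wild type, 0.02 between heterozygous and wild type and -0.08 between homozygous and heterozygous. That leaves out what Fos, Ier2, Nr4a1 and Cyr61 show, which were over 1.5-fold higher in array 2 in all 3 labels. It also leaves out 5 of 10 members, which were higher in array 2 in all 3 labels by any amount (13.1% of all tested probes). Whether arrays of the same number share a day or batch was not tested. Fgfr2 and Spry4 stood under the background level, which limits what their values show.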
